A study of Rattus norvegicus with 6 samples.

Results

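The family of miR-99, miR-100 and miR-125 was described in the left ventricle of OLETF and LETO rats. Its 6 members were the assays named exactly miR-99a, miR-99b, miR-100, miR-125a-5p, miR-125b-5p and miR-125a-3p once the species prefix and assay number were removed, out of 584 miRNA assays in all. Assays marked with an asterisk (the less abundant strand of a hairpin) were not members. MicroRNA levels had been measured by RT-qPCR on TaqMan rodent cards in 3 OLETF rats, labelled as diabetic, and in 3 LETO rats, the healthy control strain. No genetic change, drug or age is given for either group in the labels, and every diabetic rat was OLETF, so that strain, obesity and diabetes cannot be told apart. The labels do not say that the 3 ventricles of a group came from separate litters or days, so the p-values measure only the spread between these samples.

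The genes of these miRNAs lie in clusters that also hold a let-7 gene, an arrangement kept across animals, and the 3 miRNAs of a cluster can be cut from a shared primary transcript. miR-100 and its relatives are known to repress mTOR and other members of insulin and growth factor signalling. miR-125 is the vertebrate relative of the worm lin-4, which together with let-7 times development. miR-125b is known to repress p53 in human cells. A miRNA recognises its targets mainly through its seed, bases 2 to 8 counted from the 5′ end.

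The mature sequences are shown because members of a family share a seed and differ elsewhere, which is what the assays have to tell apart. They are the rat sequences of RefSeq (build GRCr8), with the seed in capitals. 5 of 6 members were matched; the missing entry is miR-99a.
miR-99b: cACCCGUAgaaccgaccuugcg
miR-100: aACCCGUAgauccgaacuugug
miR-125a-5p: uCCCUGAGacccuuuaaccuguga
miR-125b-5p: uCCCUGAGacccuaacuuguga
miR-125a-3p: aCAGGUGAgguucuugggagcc
The let-7 miRNAs of the same clusters carry a seed of their own.
let-7e: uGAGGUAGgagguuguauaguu
let-7c: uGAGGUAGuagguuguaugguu
let-7a: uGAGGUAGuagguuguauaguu
miR-99b and miR-100 thus share the seed ACCCGUA, and 18 of their 22 bases are the same. The differences are C1A, A11U, C16A and C21U, with the base of miR-99b first and positions counted from the 5′ end. miR-125a-5p and miR-125b-5p share the seed CCCUGAG, their first 13 bases and their last 5 bases. miR-125a-3p has a seed found in no other matched member. let-7a differs from let-7c by A19G and from let-7e by U9G. Whether the assay of a member also reads a near-identical relative was not tested, and levels of such pairs are uncertain to that extent.

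The cluster on chromosome 1, chr1:67350064-67350759 on the plus strand of GRCr8, holds Mir99b, Mirlet7e and Mir125a within 696 bases, inside the span of the gene Spaca6. The cluster on chromosome 8, chr8:50798295-50850122 on the plus strand, holds Mir100, Mirlet7a-2 and Mir125b1 within 51828 bases, inside the spans of Mir100hgl and the long noncoding RNA gene Lnc215. The cluster on chromosome 11, chr11:29687392-29732648 on the plus strand, holds Mir99a, Mirlet7c1 and Mir125b2 within 45257 bases, inside the span of the long noncoding RNA gene LOC103693508. The gene table used gives spans only, so exon and intron positions are not stated. The miR-125b-5p assay reads the product of 2 hairpins, Mir125b1 and Mir125b2, and let-7a and let-7c each come from more than 1 locus in the gene table, so these assays do not report on a single cluster. miR-125a-5p and miR-125a-3p are the arms of the 85-base hairpin Mir125a, chr1:67350675-67350759 on the plus strand, printed with both mature arms in capitals to show how they face each other.
Mir125a: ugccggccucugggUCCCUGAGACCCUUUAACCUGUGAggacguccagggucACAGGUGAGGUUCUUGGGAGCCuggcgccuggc

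The threshold cycle (Ct), the PCR cycle at which a well's signal crosses a threshold, falls as the amount of RNA grows, by 1 cycle per log2 unit at full PCR efficiency. The level of an assay is given as the U6 snRNA Ct of the same card minus the Ct of the assay, in log2 units, so it is negative below U6, and a Ct of 35 or more was treated as not measured. The number of assays measured was 197 to 228 in OLETF and 202 to 292 in LETO samples. LETO replicate 3, with 292, stood apart. On the first card (card A) its median Ct over the 122 assays measured in all 6 samples was 26.5, against 28.0 or more in each of the other 5 samples, while its U6 Ct was 17.9, within the 17.5 to 19.2 of the others. Heart muscle markers (7 of 7 assays) and both endothelial markers were measured in all 6 samples, and liver miR-122 and islet miR-375 in none, so the labelled tissue held its defining markers. The smooth muscle markers miR-143 and miR-145 were also measured in all 6. The erythroid markers were split: miR-486 was measured in all 6 samples and miR-451 only in LETO replicate 3. All 6 members lay on card A, in 1 well each.

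miR-125b-5p and miR-125a-5p had the highest levels in the family, followed by miR-100, miR-99a and miR-99b, while miR-125a-3p was near the limit of measurement. By mean Ct over the 6 samples, these 5 held places 21, 30, 45, 50 and 89 among the 122 assays of card A. A level of 1 assay over another rests on equal PCR efficiency, which was not tested. miR-125b-5p lay above miR-100 in 6 of 6 samples, by 1.39 to 2.55 log2 units, and miR-100 above miR-99a in 6 of 6, by 0.31 to 0.75. miR-99b was the lowest of the 5 in every sample, lying 1.64 to 3.12 below miR-99a. Only miR-125a-5p changed place. It lay below miR-125b-5p in 4 of 6 samples, and above miR-100 and miR-99a in 5 of 6. The exception in both cases was LETO replicate 3, where its level minus that of miR-100 was -1.84 and minus that of miR-99a -1.24.

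At an adjusted p threshold of 0.05, none of the tested members was called different in OLETF ventricles. The background was 0 of 193 assays called, or 0% (limma, 2 of 193 at an unadjusted p under 0.05), so that the members' 0 of 5 tested equals it. An assay was tested where at least 2 samples of each group measured it, which left out miR-125a-3p. Relative to U6, 4 of the 5 lay lower in OLETF and 1, miR-125a-5p, lay higher, against 80.8% of all assays lower and 19.2% higher. The median difference of the 5 was -0.55 log2 units and that of all 193 assays -0.60, so the members' median was close to that of all assays. The 7 heart muscle assays also lay lower in OLETF relative to U6, by differences of -1.31 to -0.27, with 0 called, and their part in the members' values was not tested. In bulk tissue, fewer cells of a type and less RNA per cell cannot be told apart.

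miR-99a, processed from the chromosome 11 cluster, had levels of -11.00, -10.79 and -8.65 relative to U6 in OLETF replicates 1, 2 and 3, against -9.77, -11.31 and -6.79 in the LETO replicates. Replicate 3 was the highest of each group. The groups overlapped, as they did relative to U6 for each of the 162 assays measured in all 6 samples. The difference, OLETF minus LETO, was -0.86 (SE 1.38, limma adjusted p = 0.997, n = 3 each, two-sided exact permutation p = 0.7).

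miR-100, the chromosome 8 relative with the same seed as miR-99b, had levels of -10.61, -10.03 and -8.34 in OLETF, against -9.18, -10.67 and -6.19 in LETO. It followed the same order of samples as miR-99a, with LETO replicate 3 highest and LETO replicate 2 lowest. It had the most negative difference of the family, -0.99 (SE 1.38, limma adjusted p = 0.997, exact permutation p = 0.7).

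miR-99b, first in the chromosome 1 cluster, had levels of -12.64, -13.06 and -11.58 in OLETF, against -12.11, -13.60 and -9.91 in LETO. The OLETF values lay inside the range of the LETO values. The difference was -0.55 (SE 1.38, limma adjusted p = 0.997, exact permutation p = 0.8).

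miR-125b-5p had levels of -8.51, -8.03 and -5.80 in OLETF, against -7.03, -8.97 and -4.79 in LETO. Replicate 3 was again the highest in each group. The difference was -0.51 (SE 1.38, limma adjusted p = 0.997, exact permutation p = 0.7).

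miR-125a-5p, which shares its seed with miR-125b-5p and its cluster with miR-99b, was the 1 member tested that lay higher in OLETF. Its levels were -8.28, -8.07 and -6.96 in OLETF, against -8.38, -8.75 and -8.03 in LETO. OLETF was the higher in 7 of 9 pairs of samples, and the groups overlapped. The difference was 0.62 (SE 1.38, limma adjusted p = 0.997, exact permutation p = 0.3). Its SD among LETO samples was 0.358, against 1.86 to 2.30 for the other 4 members tested, which were all far higher in LETO replicate 3 than in LETO replicates 1 and 2. The SE of 1.38 is the same for each of these assays because limma in effect pooled the variance over the whole table, so it does not describe 1 miRNA.

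The last member, miR-125a-3p, had a Ct of 34.5 in OLETF replicate 1 and 35.1 in replicate 2 and no Ct in replicate 3. In LETO it had no Ct in replicate 1, 35.1 in replicate 2 and 33.3 in replicate 3. It was thus measured in 1 of 3 samples of each group and was not tested. In the 2 samples that measured both arms of Mir125a, the 5p arm stood 8.59 log2 units above the 3p arm in OLETF replicate 1 and 7.36 above it in LETO replicate 3. These are single samples with no replicate check.

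**Figure D1:**
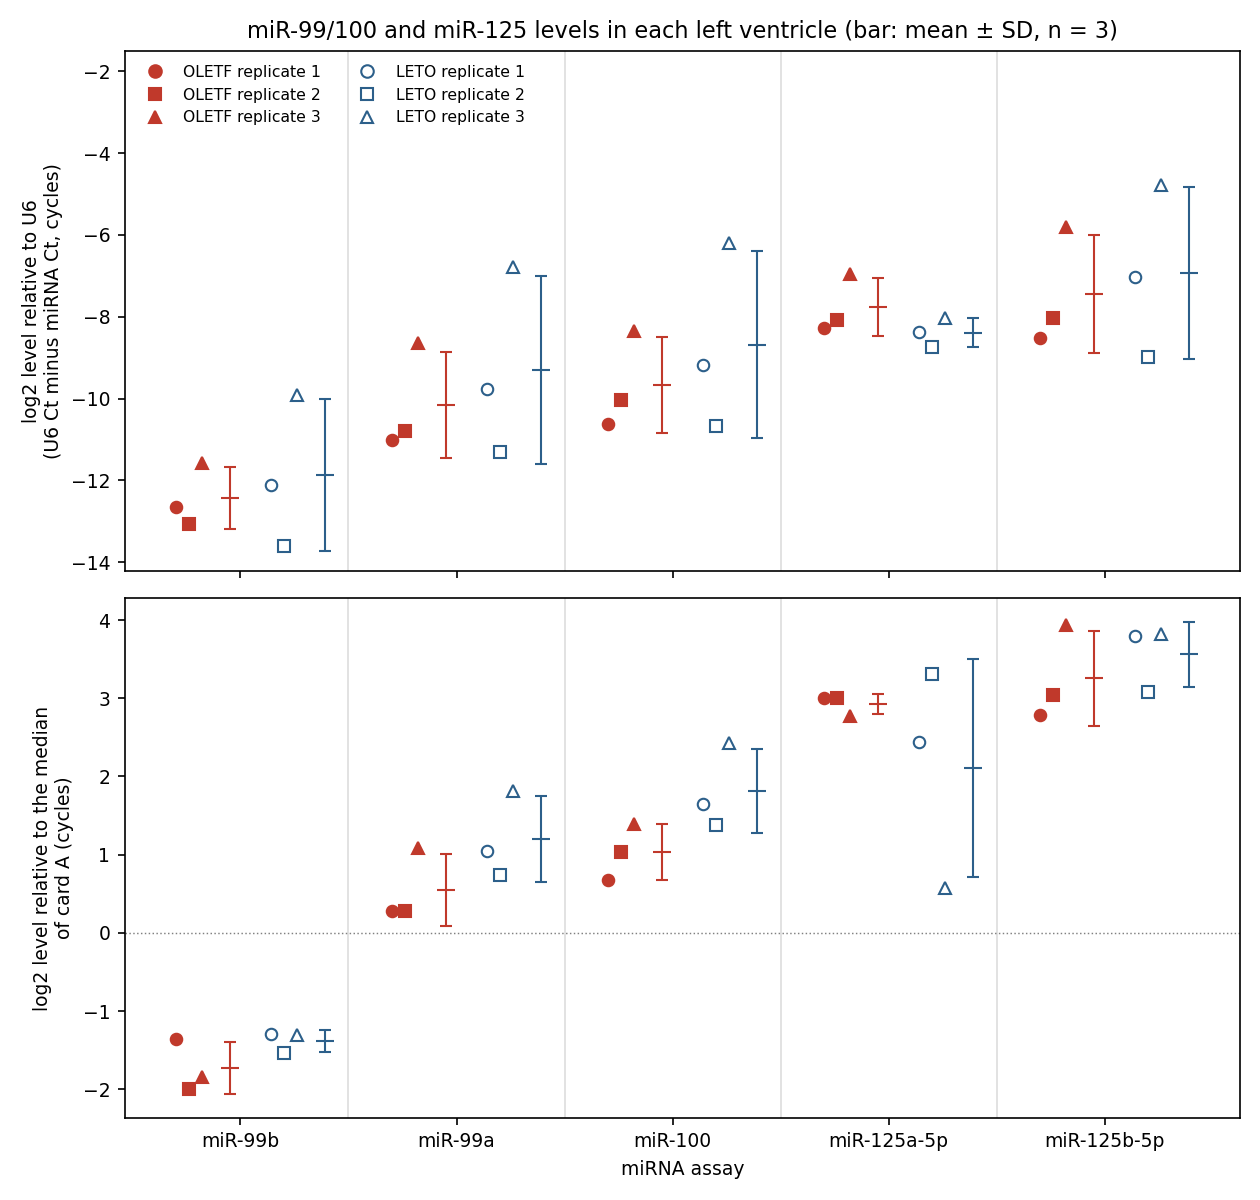
Levels of the 5 members measured in all 6 samples, in log2 units relative to U6 (top) and to the card A median (bottom); points are single ventricles, OLETF filled and LETO open, and the bars are mean ± SD (n = 3). Relative to U6, replicate 3 of LETO is raised for miR-99b, miR-99a, miR-100 and miR-125b-5p but hardly for miR-125a-5p, and relative to the card median miR-125a-5p lies at 0.58 in that sample.

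The whole card moved with these values. The median level of the 122 card A assays relative to U6 was -11.29, -11.07 and -9.74 in OLETF, against -10.82, -12.06 and -8.61 in LETO, the same order of samples as for miR-99a. Levels were therefore also set relative to the median Ct of those assays on the card, a reference that cancels a shift common to the card. Background calls with it were again 0% of 193 (limma, 12 at an unadjusted p under 0.05), and the differences of all assays had a median of -0.31. With this reference too, 4 of the 5 members lay lower in OLETF and 1 higher, against 67.4% of all assays lower and 32.6% higher.

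Relative to the card median, miR-100 averaged 1.03 ± 0.36 log2 units in OLETF and 1.82 ± 0.54 in LETO (SD, n = 3 each), a difference of -0.78 (SE 0.418, limma adjusted p = 0.632). OLETF was lower in 8 of 9 pairs of samples, and the groups touched at 1.39 in OLETF replicate 3 and 1.38 in LETO replicate 2. miR-99a averaged 0.55 ± 0.46 in OLETF and 1.2 ± 0.55 in LETO, with a difference of -0.65, and was lower in 7 of 9 pairs (SE 0.437, limma adjusted p = 0.632). Both differences were larger than the SD within either group, but neither passed the test and the groups overlapped. Without LETO replicate 3 they were -0.48 for miR-100 and -0.35 for miR-99a.

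miR-99b averaged -1.73 ± 0.33 in OLETF and -1.38 ± 0.14 in LETO, a difference of -0.35 (SE 0.360, limma adjusted p = 0.697). For miR-99b too, the difference was larger than the SD within either group, and OLETF was lower in 8 of 9 pairs of samples. miR-125b-5p averaged 3.25 ± 0.61 in OLETF and 3.56 ± 0.42 in LETO, a difference of -0.31 (SE 0.441, limma adjusted p = 0.775). Both were close to the median of all assays. miR-125a-5p averaged 2.93 ± 0.13 in OLETF and 2.11 ± 1.4 in LETO, a difference of 0.82 (SE 0.646, limma adjusted p = 0.638). LETO replicate 3 was at 0.58, apart from 2.44 and 3.31 in LETO replicates 1 and 2, and without that sample the difference was 0.05 (SE 0.354). For 0 of the 5 members did the groups not overlap, while they did not overlap for 13.6% of the 162 assays measured in all samples.

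**Figure D2:**
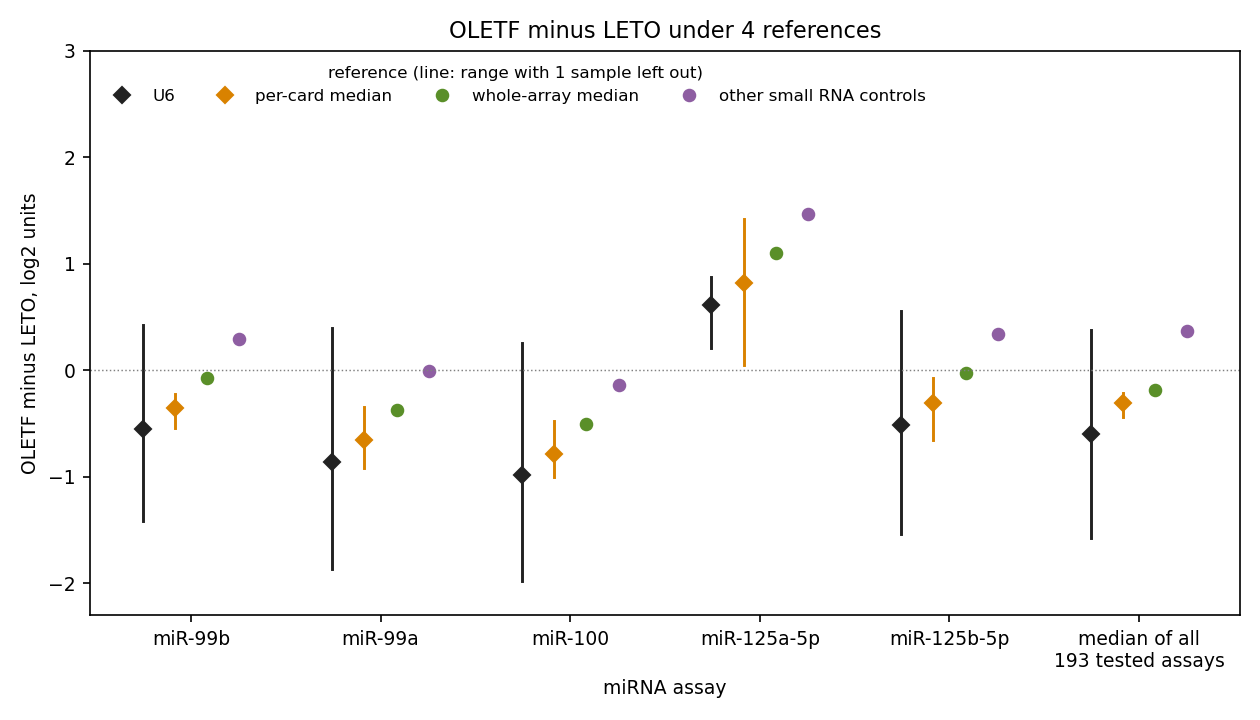
Difference OLETF minus LETO in log2 units for each of the 5 tested members and the median of all 193 tested assays, under 4 references; the lines give the range when each sample is left out in turn, for the U6 and per-card median references. miR-125a-5p lies above 0 under all 4 references, and the U6 range of each other member crosses 0, which it does when LETO replicate 3 is left out.

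The choice of reference shifted the members together. When the mean of the remaining controls of card A (snoRNA135, U87 and Y1) replaced U6, miR-99b and miR-125b-5p turned to 0.30 and 0.34, miR-99a and miR-100 lay at -0.0051 and -0.13, and the median of all assays turned to 0.37. With U6 and without LETO replicate 3, all 5 differences were above 0, from 0.26 for miR-100 to 0.79 for miR-125a-5p, and the median of all assays was 0.38. As all members lie on card A, a change of reference adds the same amount to each, and the order of their differences is fixed.

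A difference between 2 assays of the same card in the same sample needs no reference, and 12 such pairs were compared: partners of a cluster or hairpin, members of the same seed family, and members with the let-7 miRNA of their cluster. 11 had values in all 6 samples and were tested, and none differed between OLETF and LETO (two-sided exact permutation p from 0.2 to 1, adjusted over the 11 from 0.733 to 1; 3 against 3 samples allow no p below 0.1). The groups did not overlap for 0 of 11, against 13.8% of all 7381 pairs of card A assays.

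In the chromosome 1 cluster, the level of miR-99b minus that of miR-125a-5p was -4.36, -4.99 and -4.62 in OLETF, against -3.73, -4.85 and -1.88 in LETO. The OLETF samples lay close together and LETO replicate 3 stood apart. The mean was -4.65 ± 0.32 in OLETF and -3.48 ± 1.5 in LETO (SD, n = 3 each), a difference of -1.17 (exact permutation p = 0.3, adjusted 0.733), and -0.37 without LETO replicate 3.

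miR-125a-5p minus let-7e, the middle gene of that cluster, was 2.98, 2.63 and 1.78 in OLETF, against 0.81, 2.30 and -0.28 in LETO. OLETF was higher in 8 of 9 pairs of samples, and this was the largest of the 11 tested differences in size, 1.52 (SE 0.828, exact permutation p = 0.2, adjusted 0.733), and 0.91 without LETO replicate 3. miR-99b minus let-7e, the remaining pair of the cluster, was -1.38, -2.36 and -2.83 in OLETF, against -2.92, -2.55 and -2.16 in LETO. Its difference was 0.35 (exact permutation p = 0.6, adjusted 0.825), with an SD of 0.743 in OLETF and 0.380 in LETO.

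In the chromosome 11 and 8 clusters, miR-99a minus miR-125b-5p was -2.50, -2.76 and -2.86 in OLETF, against -2.74, -2.34 and -2.0 in LETO, a difference of -0.34 (exact permutation p = 0.2, adjusted 0.733). miR-100 minus miR-125b-5p was -2.10, -2.01 and -2.55 in OLETF, against -2.15, -1.70 and -1.39 in LETO, a difference of -0.47 (exact permutation p = 0.3, adjusted 0.733). Over the 6 samples the first pair stayed between -2.86 and -2.0 and the second between -2.55 and -1.39, while the Ct of each of the 3 assays ranged over 3.75 to 4.30 cycles. The median Ct of card A ranged over 3.53 cycles in the same samples. Steadiness against such a range is therefore not particular to partners of a cluster. Without LETO replicate 3 the differences were -0.16 and -0.30. With the let-7 of the cluster, miR-99a minus let-7c differed by -0.37, miR-125b-5p minus let-7c by -0.03 and miR-100 minus let-7a by 0.11 (exact permutation p = 0.7, 1 and 0.8), with SDs of 0.60 to 1.2 within a group.

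Between members with a shared or related seed, miR-99a minus miR-100 was the steadiest pair, at -0.39, -0.75 and -0.31 in OLETF, against -0.60, -0.64 and -0.60 in LETO. Its difference was 0.13 (SE 0.136, exact permutation p = 0.4, adjusted 0.733). miR-99a minus miR-99b differed by -0.30 (SE 0.459, exact permutation p = 0.4, adjusted 0.733). miR-125a-5p minus miR-125b-5p was 0.22, -0.04 and -1.16 in OLETF, against -1.35, 0.23 and -3.24 in LETO. The miR-125 pair varied more than both miR-99 pairs, and its difference of 1.13 (SE 1.09, exact permutation p = 0.5, adjusted 0.786) was 0.24 without LETO replicate 3 and 1.97 without LETO replicate 2.

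**Figure D3:**
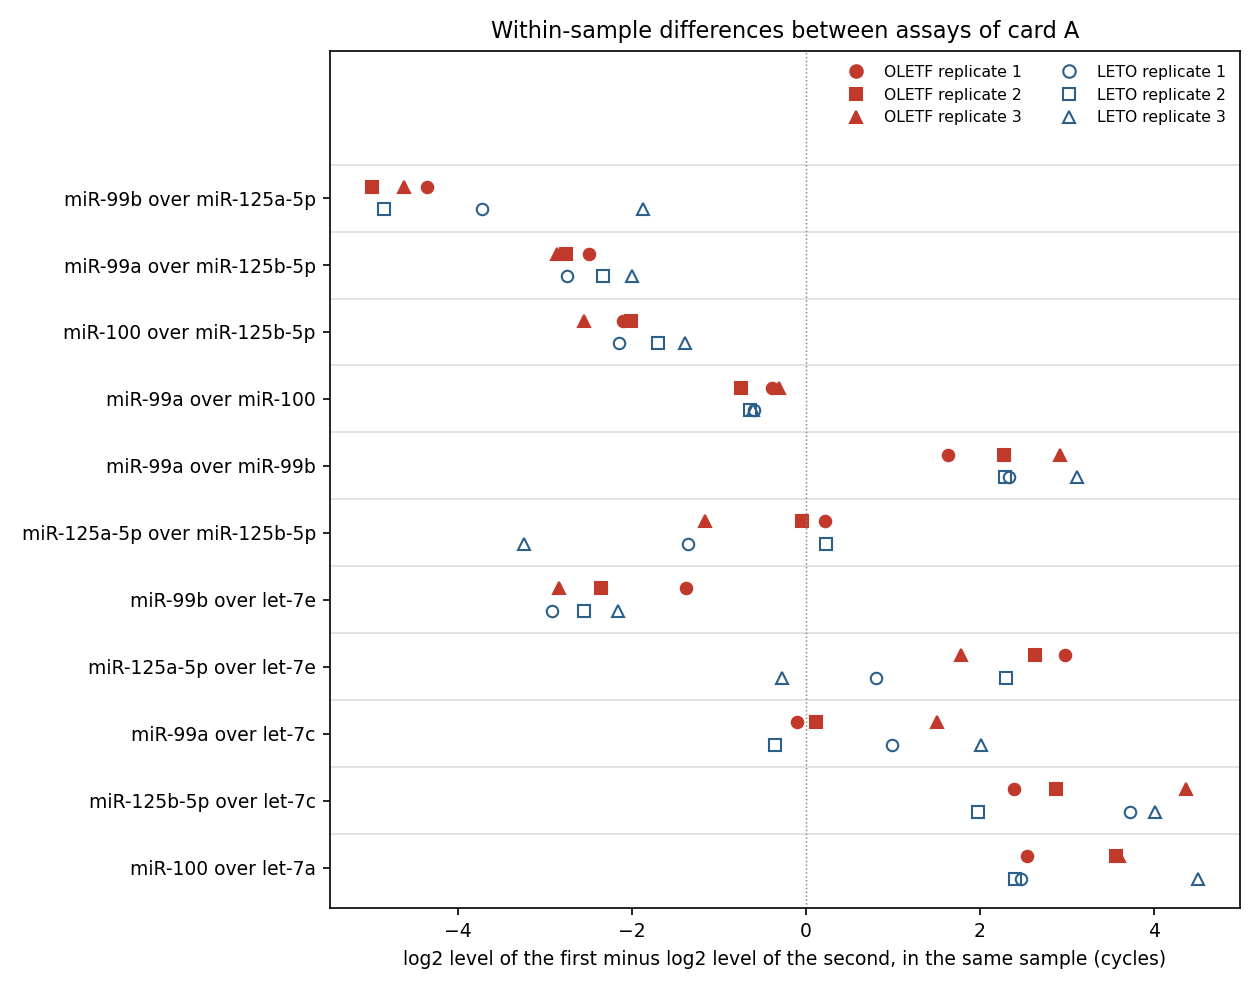
Within-sample differences for the 11 tested pairs, as log2 level of the first minus log2 level of the second assay (cycles); each point is 1 ventricle, OLETF filled above LETO open. The groups overlap in every pair, miR-99a over miR-100 spans only -0.75 to -0.31, and the pairs with miR-125a-5p are spread widest by LETO replicate 3.

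How closely 2 assays moved together was described by the SD, over the 6 samples, of their within-sample Ct difference, where a small SD means parallel levels. All pairs share the same 6 libraries, so these are descriptions with no test. Among the 6 pairs of members without miR-125a-5p the SD was 0.165 to 0.552 cycles, and among the 4 pairs with miR-125a-5p it was 1.16 to 1.53. The median over all 7381 pairs of card A assays was 0.765, with the middle part of them between 0.541 and 1.03. With all 6 samples, the other 4 members were thus more parallel to each other than the median pair of the card, across 3 chromosomal clusters. Among these, the pairs with miR-99b, at 0.529 to 0.552, lay only near the lower end of the middle part. The pairs of miR-99a, miR-100 and miR-125b-5p lay below it, at 0.165 to 0.397. With all 6 samples, each pair with miR-125a-5p was less parallel than the middle part. This gap rested on LETO replicate 3. Without that sample the SD was 0.499 to 0.775 for the 4 pairs with miR-125a-5p, against 0.182 to 0.609 for the 6 others and a median of 0.605 over all pairs. Of the 6 others, only miR-99b with miR-125b-5p (0.609) then lay above that median. miR-125a-5p lay below it with miR-99b (0.499) and miR-100 (0.599), and above it with miR-99a (0.629) and miR-125b-5p (0.775). miR-125a-5p shares its seed with miR-125b-5p (SD 1.34, and 0.775 without LETO replicate 3) and its cluster with miR-99b (SD 1.16, and 0.499 without it) and let-7e (SD 1.23, and 0.846 without it). miR-125b-5p and let-7e, of different clusters and seeds, had an SD of 0.386, and 0.382 without it.

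The assays nearest to each member were named by the smallest SD among 121 others. For miR-99a they were miR-126-5p (SD 0.151) and miR-100 (SD 0.165). miR-126-3p, the other arm of that endothelial hairpin, had an SD of 0.846 to miR-99a. For miR-100 they were miR-99a and miR-450a (SD 0.214), and for miR-99b 2 members of the miR-30 family, miR-30e (SD 0.157) and miR-30d (SD 0.232). For miR-125b-5p they were miR-93, of a paralogue of the miR-17-92 cluster (SD 0.170), and miR-142-3p, a blood cell miRNA (SD 0.217). miR-125a-5p had miR-320 (SD 0.338) and miR-574-3p (SD 0.350), and its median SD to the 121 assays was 1.23, against 0.577 to 0.670 for the other 4. Without LETO replicate 3, that median SD was 0.604 for miR-125a-5p, against 0.448 to 0.563 for the other 4. The nearest assays also changed: miR-29c and miR-16 for miR-125a-5p, and miR-93 and miR-26a for miR-99a. They stayed the same pair for miR-125b-5p, and 1 of the 2 stayed for miR-99b (miR-30e) and for miR-100 (miR-99a).

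**Figure D4:**
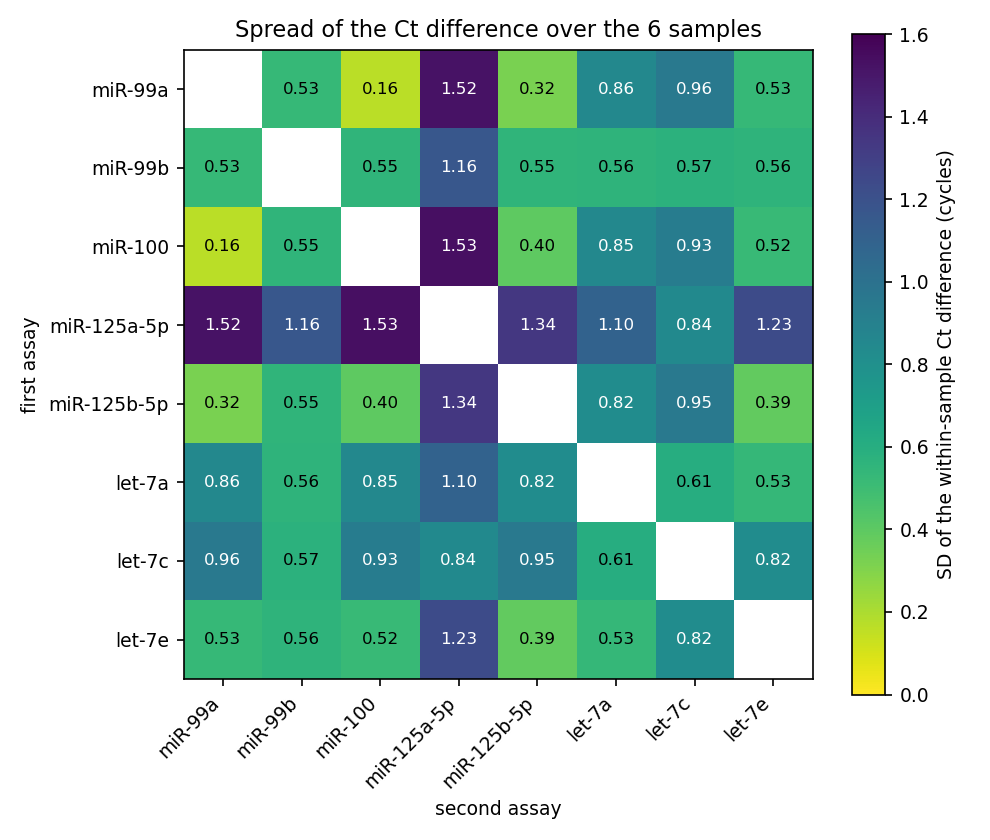
SD over the 6 samples of the within-sample Ct difference (cycles) between the 5 members and the 3 let-7 miRNAs of their clusters; darker cells are pairs that moved less in parallel. With all 6 samples, LETO replicate 3 included, the row of miR-125a-5p spans 0.84 to 1.53, all other cells reach at most 0.96, and miR-99a with miR-100 has the smallest value, 0.16.

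The let-7 miRNAs of the same clusters all lay lower in OLETF relative to U6, with 0 of 3 called: let-7a differed by -1.09, let-7e by -0.90 and let-7c by -0.48 (SE 1.38 each). Relative to the card median the differences were -0.89 (SE 0.447), -0.70 (SE 0.416) and -0.28 (SE 0.459), and the groups overlapped for each. Of 6 other let-7 family assays, 5 were tested and 0 called, with a median of -0.32 relative to U6 and -0.11 relative to the card median. Among them let-7i was lower in OLETF in 9 of 9 pairs of samples relative to the card median (-0.67, SE 0.365, limma adjusted p = 0.632), while 13.6% of 162 assays did not overlap with that reference. Relative to U6 the groups overlapped for let-7i, with OLETF lower in 5 of 9 pairs. With that reference the groups failed to overlap for 0% of the 162 assays, so the overlap is not particular to let-7i. miR-98, the let-7 relative not tested, had a Ct under 35 in OLETF replicate 3 and in all 3 LETO samples. Among all assays, 80.8% lay lower relative to U6 and 67.4% relative to the card median, so 3 of 3 lower is read as no result.

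The opposite strands of the hairpins had 5 assays, of which 4 were tested, all on the second card (card B), with 0 called. miR-99a*, from the hairpin of miR-99a, had levels of -16.02, -17.01 and -14.48 relative to U6 in OLETF, against -13.59, -16.87 and -10.51 in LETO. As for miR-99a, LETO replicate 3 was highest. It differed by -2.18 (SE 1.38, limma adjusted p = 0.997) and, relative to the card median, by -1.42 (SE 0.627, limma adjusted p = 0.632). miR-99b* had levels of -13.07, -14.35 and -13.04 in OLETF, against -13.23, -13.75 and -14.12 in LETO, and differed by 0.22, and by 0.98 relative to the card median (SE 1.17). Its lowest LETO level was in replicate 3, the sample in which miR-99b was highest. The 2 miR-125b* assays, of rat and mouse design, differed by -0.52 and -0.58 relative to U6, but by 0.25 and 0.18 relative to the card median. Over the 4 assays, 1 was higher and 3 lower relative to U6, and 3 were higher and 1 lower relative to the card median. The rat assay averaged -12.15 in OLETF and -11.64 in LETO, and the mouse assay -16.13 and -15.54. miR-125b-3p, on card A, had a Ct under 35 in LETO replicates 1 and 3 alone and was not tested.

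The authors' deposited table of ratios, OLETF over LETO, gave 0.505 for miR-100, 0.552 for miR-99a, 0.681 for miR-99b, 0.701 for miR-125b-5p and 1.53 for miR-125a-5p. These came from the same Ct values and equal the U6 differences above on the log2 scale. The authors' deposited table also gave 0.641 for miR-125a-3p. In the deposited normalized values an undetermined well stands as 40 cycles, and miR-125a-3p had 1 such well in each group.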

How the data were processed

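RNA of 6 left ventricles was copied with a stem-loop primer pool and run on rodent miRNA arrays, per the labels' protocols and the series' design, with U6 snRNA as endogenous control. The design names a TaqMan array while the samples' label field gives SYBR Green, and TaqMan was taken as the chemistry from the design. The authors deposited the Ct of each well, in cycles, delta Ct values, which are on the log2 scale with the sign reversed, and a linear ratio (fold) per well, per the file headers; instrument settings are not given in the sources used here. Rows were taken as 2 cards of 384 wells. Determined wells of an assay were averaged. Assays with a Ct under 35 in 2 or more of the 3 samples, in both groups, were fitted together with limma 3.58.1 (lmFit, eBayes) in R 4.3.3, two-sided, with Benjamini-Hochberg adjustment over all 193 and a threshold of 0.05. Within-sample differences were compared by exact permutation. The fit was tested on simulated data with independent noise and changes larger than the difference of any member. That test therefore does not cover differences as small as those of the members, or shifts shared by a card. The precision is limited by single wells: on card A the 4 U6 wells of a sample had an SD of 0.184 to 0.310 cycles, and on card B a single well had an SD of 0.486 cycles over 189 pairs of wells. Members, lists, pairs and the rule for nearest assays (the 2 with the smallest SD) were chosen with earlier results of these data known. Alternatives were other references, Ct limits of 32 and 38, the deposited delta Ct, filters, array weights, blocks and samples left out. The block of the samples numbered 3, the per-card median fits with samples left out and the SDs without LETO replicate 3 were added after seeing the data.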

Additional observations from a re-analysis of the deposited data

How the results depend on the processing

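No member passed an adjusted p of 0.05 (limma) in any of 26 alternatives, the lowest being 0.260 for miR-100 with array weights. The count over all assays, 0 of 193, became 30 with array weights, 1 with the replicate block and 1 with a block of the samples numbered 3. No member was among them, and the cause was not tested. Both blocks follow only the replicate numbers in the sample titles. The labels also give sample names, which for replicates 1, 2 and 3 are LETO2, LETO3 and LETO4, and OLETF1, OLETF2 and OLETF3. The numbers in these names thus match other samples across the groups than the titles do. Deviations from the group means correlated by -0.088, 0.23 and 0.62 between the samples numbered 1, 2 and 3. Whether samples of the same number belong together was not tested. With 1 sample of each group per block, the replicate block could not change the members' differences, while their SE went from 1.38 to 0.808. For each member 7 alternatives gave the main value again, and 18 gave distinct values. Of these 18, miR-125a-5p was above 0 in 18, from 0.05 to 1.47, miR-100 and miR-99a were below 0 in 17 each, and miR-99b and miR-125b-5p in 15 each. With the other small RNA controls, miR-99b was 0.30, miR-125b-5p 0.34 and the median of all assays 0.37, and within replicates 1 and 2 miR-99b was 0.0026. With U6 and 1 sample left out, the difference ran from -1.87 to 0.39 for miR-99a, -1.42 to 0.43 for miR-99b, -1.98 to 0.26 for miR-100, -1.53 to 0.56 for miR-125b-5p and -1.57 to 0.38 for the median of all assays. These turned positive without LETO replicate 3, and miR-125b-5p also without OLETF replicate 1 (0.02). Of the within-sample pairs, 1 sample left out gave -0.63 to 0.019 for miR-99a over miR-99b, -0.057 to 0.67 for miR-99b over let-7e, -0.99 to 0.19 for miR-99a over let-7c, -0.66 to 0.38 for miR-125b-5p over let-7c and -0.26 to 0.80 for miR-100 over let-7a. miR-125a-5p over miR-125a-3p, 1.23 higher in OLETF from 1 sample each, was 0.69 with a Ct limit of 38, which uses 2 samples of each group. It was 1.26 in the deposited table, which uses all 6 samples and counts an undetermined well as 40 cycles, so these values rest on different samples. miR-125a-3p was measured in 2 of 6 samples, in 4 with a limit of 38 and in 0 with 32. At 38 it differed by -0.47 relative to U6 (SE 1.77, limma adjusted p = 0.992).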

Other observations

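The lower Ct of LETO replicate 3 was uneven over card A. Set against the mean of LETO replicates 1 and 2, its Ct was lower by more than 3 cycles for 74 of the 122 assays measured in all samples, and the median of the card changed by -3.27. miR-99a (-4.19), miR-100 (-4.18), miR-125b-5p (-3.65) and miR-99b (-3.39) changed by more than the card median, while miR-125a-5p changed by -0.98, the third smallest change of the card. Only 4 assays changed by less than 1 cycle downwards: miR-191 (-0.57), the mouse-design miR-1 assay (-0.92), miR-125a-5p (-0.98) and miR-146b (-0.98). These 4 were picked out from their values. In OLETF replicate 3, set against OLETF replicates 1 and 2, miR-125b-5p changed by -2.04, miR-99a by -1.81, miR-100 by -1.55, miR-99b by -0.84 and miR-125a-5p by -0.78, around a card median of -1.01. On card B, where the median of 40 assays changed by -1.96 in LETO replicate 3, miR-99a* changed by -3.66, the rat-design miR-125b* assay by -1.43, the mouse-design one by -0.61 and miR-99b* by 1.68.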
